A study of Mus musculus with 451 samples.

Results

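The integrin subunits that bind collagen and other matrix proteins were followed in single cells of mouse tail tendon. The group held 10 genes of the 48795 gene symbols in the count table, and its members were chosen by name. They were the collagen-binding alpha subunits Itga1, Itga2, Itga10 and Itga11, the alpha subunits Itga5, Itga8 and Itgav, which bind matrix proteins through an RGD motif, and the beta subunits Itgb1, Itgb3 and Itgb5. Single cells had been released with collagenase from the tail tendons of 4-week-old C57BL/6 mice, either wild-type (WT) or lacking the tendon transcription factor Mohawk (Mkx-/-), captured with a Fluidigm C1 high-throughput circuit and given a library each. The data held 227 WT cells and 224 Mkx-/- cells. No label tells which animal or capture run a cell came from. Each genotype was therefore 1 sample, no test between genotypes was made, and no difference between genotypes below has a replicate check.

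An integrin is a receptor made of 1 alpha and 1 beta chain that links the matrix outside a cell to the actin cytoskeleton inside. The alpha chain mainly sets the ligand. The alpha chains of Itga1, Itga2, Itga10 and Itga11 pair with the beta chain of Itgb1 to form the collagen receptors, those of Itga5 and Itga8 also pair with it to bind fibronectin or nephronectin, and that of Itgav pairs with Itgb1, Itgb3 or Itgb5 to bind vitronectin, fibronectin and osteopontin. Tendon is built mostly of fibrillar type I collagen, so these receptors are the main direct contacts of its cells with the tissue, and the receptor with the Itga11 chain is known as a fibrillar collagen receptor of mesenchymal cells.

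The values are reads summed over the cells of a group and scaled to a total of 1000000 reads (CPM), with 95% intervals that cover counting error only. The reads were not counted as unique molecules and several can come from 1 transcript, and the intervals do not cover this. The WT cells held 13630536 reads (median 51788 per cell) and the Mkx-/- cells 14145394 (median 56121 per cell). The cells fell into 3 clusters, rebuilt from the counts. Cells with high tendon progenitor markers are called TPC-like (45.8% of WT and 43.3% of Mkx-/- cells). Cells with high tenocyte markers are called TC-like (32.6% and 36.2%). The remaining cluster is called cluster 3 (21.6% and 20.5%). It was named by exclusion, and the 2 markers of intermediate tendon cells that were examined were highest there in both genotypes. Of the 10 members, Itga2 was among the genes used to cluster the cells. Mkx itself was found in 52 of 227 WT cells (33.8 CPM, 30.8 to 37.1) and in 29 of 224 Mkx-/- cells (15.5 CPM, 13.5 to 17.7). Its reads were therefore lower but not absent in the cells labelled Mkx-/-, and the table does not separate reads of the deleted part of the gene from reads of the rest. Reads of at least 3 markers of a non-tendon cell type, such as macrophage or Schwann cell, occurred in 11 WT and 8 Mkx-/- wells.

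Itgb1, which encodes the shared partner of the collagen receptors, lay far above every other member. Per kilobase of exon it reached 127.9 CPM in WT and 140.7 in Mkx-/- cells, followed by Itgb5 at 46.9 and 51.4, Itgav at 14.4 and 13.4 and Itgb3 at 8.05 and 10.9 CPM per kilobase. The remaining 6 members stayed at or below 3.15 CPM per kilobase, and their order differed between the genotypes. Itga5 led them in WT with 3.15, while in Mkx-/- cells Itga11 (2.93) lay above Itga5 (2.49 CPM per kilobase). Whether reads fell along the whole transcript or near its 3′ end is not given in the sources used here, so values per kilobase may not compare between members. In plain CPM, Itgb1 was again the highest member, and Itgb3 lay below Itgb5 and Itgav. Itgb5 and Itgav were about level in WT, at 157.8 (151.2 to 164.6) and 154.2 CPM (147.7 to 160.9). In Mkx-/- cells they stood at 172.8 and 144.4 CPM. Itgb1 took 56.7% of all member reads in WT and 56.95% in Mkx-/- cells, Itgb5 17.1% in both, and Itgav 16.8% and 14.3%. The 4 collagen-binding alpha subunits together summed to 21.6 CPM in WT against 39.6 CPM in Mkx-/- cells, while Itgb1 stood at 521.9 and 574.0 CPM. The median cell of either genotype held reads of 3 of the 10 members.

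**Figure D1:**
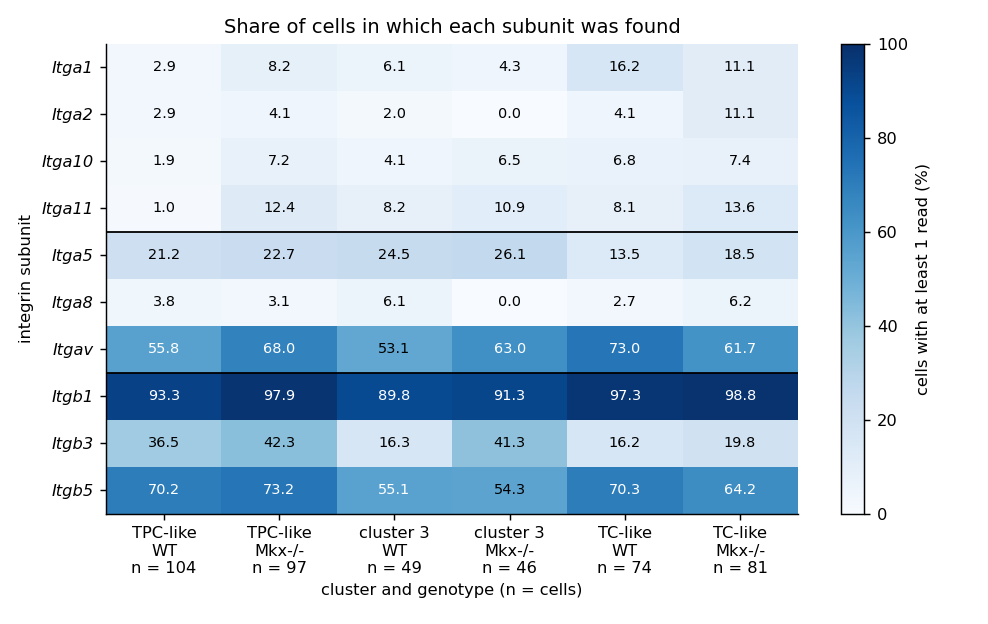
Share of cells with at least 1 read of each integrin subunit (colour and printed value, in percent) in the 3 clusters of each genotype, with the number of cells under each column. Itgb1 was found in 89.8% to 98.8% of the cells of every group, whereas each collagen-binding alpha subunit, in the upper 4 lines, was found in at most 16.2%.

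Promoter sequence is shown for 3 members that frame the results: Itga11, with the largest genotype difference, Itgb1, the most abundant member, and Itgb5, which was lower in TC-like than in TPC-like cells of both genotypes. The sequences are from RefSeq (GRCm38.p6) and run 5′ to 3′ on the strand of the gene, from 250 bases before its start to 50 bases after it. A promoter was found for 9 of the 10 members. Motifs searched on both strands were the GC box GGGCGG, the E-box CANNTG, the TEAD element GGAATG and the AP-1 element TGANTCA, and capitals mark the matches.
Itga11, chr9:62677605-62677904, plus strand: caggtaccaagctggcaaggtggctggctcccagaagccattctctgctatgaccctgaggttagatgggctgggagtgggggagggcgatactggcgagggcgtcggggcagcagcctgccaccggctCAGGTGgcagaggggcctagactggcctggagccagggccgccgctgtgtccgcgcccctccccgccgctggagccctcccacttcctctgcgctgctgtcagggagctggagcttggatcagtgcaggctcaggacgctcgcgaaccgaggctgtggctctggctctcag
Itgb1, chr8:128685404-128685703, plus strand: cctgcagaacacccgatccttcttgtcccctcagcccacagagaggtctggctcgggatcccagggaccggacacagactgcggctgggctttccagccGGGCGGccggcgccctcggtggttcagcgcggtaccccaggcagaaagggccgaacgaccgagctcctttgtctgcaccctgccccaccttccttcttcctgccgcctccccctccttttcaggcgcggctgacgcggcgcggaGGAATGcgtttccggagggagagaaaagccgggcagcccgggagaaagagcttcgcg
Itgb5, chr16:33829415-33829714, plus strand: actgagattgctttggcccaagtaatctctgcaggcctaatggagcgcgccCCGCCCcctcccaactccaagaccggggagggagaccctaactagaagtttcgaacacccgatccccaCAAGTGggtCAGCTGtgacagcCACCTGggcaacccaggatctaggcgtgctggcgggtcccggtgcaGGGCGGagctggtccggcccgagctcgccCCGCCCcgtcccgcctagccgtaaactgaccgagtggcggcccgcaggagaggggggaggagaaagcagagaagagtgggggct
In these 300 bases Itga11 held 1 E-box match, Itgb1 held 1 GC box and 1 TEAD element match, and Itgb5 held 3 GC box and 3 E-box matches. A GC box match occurred in 5 of the 9 member promoters and in 35.7% of all 32851 promoters of the table, an E-box match in 5 and in 72.3%, a TEAD element match in 2 and in 14.7%, and an AP-1 element match in 0 and in 7.81%. A match is a description of the letters and not a binding site.

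Of the collagen-binding alpha subunits, Itga11 stood apart. Its gene lies on chromosome 9 at 62525633 to 62631789 of the NCBIM37 (mm9) annotation, on the plus strand and with no overlapping gene. It was found in 11 of 227 WT cells (3.67 CPM, 2.72 to 4.84) and in 28 of 224 Mkx-/- cells (15.1 CPM, 13.1 to 17.2). The log2 ratio of Mkx-/- to WT was 2.04 (1.59 to 2.51), and the share of cells with a read was 7.65 percentage points higher (2.47 to 13.1) in Mkx-/- cells. Under 10 other ways of scaling, weighting and filtering the cells, the ratio lay between 1.57 and 2.43. Most cells of both genotypes held no read of the gene, so the level rests on few cells.

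By cluster, the Itga11 level of WT was lowest in TPC-like cells and that of Mkx-/- cells was highest there. Of WT TPC-like cells, 1 cell (0.962%) held 2 reads (0.391 CPM), while 12 of 97 Mkx-/- TPC-like cells held reads, at 21.7 CPM. The log2 ratio was 5.80 with a counting interval of 3.91 to 8.86, and the share of cells differed by 11.4 percentage points (4.71 to 19.5). A single Mkx-/- cell held 53 reads, or 48.6% of those of its group. With the leading cell of each genotype left out, WT TPC-like cells held 0 reads and the Mkx-/- level lay at least 4.28 log2 units above a floor of 3 reads. In TC-like cells, 31 reads in 6 of 74 WT cells (4.88 CPM) compared with 97 reads in 11 of 81 Mkx-/- cells (13.9 CPM), a log2 ratio of 1.51 (0.92 to 2.15). In cluster 3, 17 reads in 4 WT cells and 7 reads in 5 Mkx-/- cells gave no difference beyond counting error (log2 ratio -1.28, -2.80 to 0.06). The border between TPC-like cells and cluster 3 was soft, and clustering at a finer resolution or with every gene kept left under 100 Itga11 reads in TPC-like cells, at log2 ratios of 4.86 and 4.82. With every gene kept, Itga11 in Mkx-/- cells was no longer highest in TPC-like cells, where it then lay below TC-like cells by 0.20 and below cluster 3 by 0.88 on the log2 scale.

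Itga1, the other chain of the type I and type IV collagen receptors with a higher level in Mkx-/- cells, had similar numbers of positive cells in both genotypes before thinning. The gene lies at 115748287 to 115892172 on the minus strand of chromosome 13 and overlaps Pelo on the same strand, so reads of the shared part cannot be assigned with certainty. It was found in 18 WT cells (7.48 CPM, 6.10 to 9.08) and in 19 Mkx-/- cells (13.6 CPM, 11.7 to 15.6). The log2 ratio was 0.86 (0.51 to 1.22), while the share of cells differed by 0.553 percentage points (-4.65 to 5.79). The median among positive cells was 46.8 CPM for WT and 111.8 CPM for Mkx-/- cells. With each cell thinned to 28000 reads, Itga1 was found in 8 WT cells (3.92%) and 16 Mkx-/- cells (7.77%), which differed by 3.85 percentage points (-0.82 to 8.72). Among cells with at least 2500 detected genes the ratio was 0.39 and no longer passed 1.5-fold. In cluster 3 the ratio was 3.46 (1.78 to 5.81) over 3 and 33 reads, and 1 Mkx-/- cell held 27 of the 33.

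Itga2 and Itga10 encode the remaining collagen-binding alpha chains. Neither showed a genotype difference in level beyond counting error over all cells. Itga2 had 76 reads in 7 WT cells (5.58 CPM) and 70 reads in 13 Mkx-/- cells (4.95 CPM), a log2 ratio of -0.17 (-0.66 to 0.32). A WT well that also held markers of another cell type contributed 40.8% of the WT reads of Itga2. Without the wells with such markers the ratio was 0.64. Itga10, a collagen receptor chain known from cartilage, had 67 reads in 9 WT cells (4.92 CPM) and 85 reads in 16 Mkx-/- cells (6.01 CPM), a log2 ratio of 0.29 (-0.19 to 0.77) that ranged from -0.32 to 1.31 over the alternatives. After the same thinning, Itga10 was found in 2 WT cells (0.980%) and 11 Mkx-/- cells (5.34%), a gap of 4.36 percentage points (0.92 to 8.39). The assignment of its reads is uncertain.

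Over the 4 collagen-binding alpha subunits, cells with a read of at least 1 of them were more frequent among Mkx-/- cells. They made up 38 of 227 WT cells (16.7%, 12.1% to 22.2%) and 66 of 224 Mkx-/- cells (29.5%, 23.6% to 35.9%), 12.7 percentage points apart (4.96 to 20.3). With each cell thinned to 28000 reads, which left out 23 WT and 18 Mkx-/- cells with fewer reads, the shares were 9.80% and 25.7%, which differed by 15.9 percentage points (8.60 to 23.1). Among TPC-like cells they were 9 WT cells (8.65%) and 25 of 97 Mkx-/- cells (25.8%), which differed by 17.1 percentage points (6.75 to 27.4). Among TC-like cells they were 20 of 74 (27.03%) and 31 of 81 (38.3%), and in cluster 3 they were 9 of 49 (18.4%) and 10 of 46 (21.7%). In both of these clusters the counting interval of the difference held 0. After thinning, TC-like cells with a read were 11 of 74 in WT (14.9%) and 27 of 81 in Mkx-/- (33.3%). These shares were 18.5 percentage points apart, with an interval of 4.94 to 31.01. The thinned shares in cluster 3 were 7.32% and 18.9%, with an interval of the difference from -3.75 to 27.6. All these intervals treat cells as independent although each genotype was 1 sample, and they do not cover the random draw of the thinning. Reads of at least 2 of these subunits occurred in 6 WT and 8 Mkx-/- cells. Mkx-/- cells also held more detected genes in general, with a median of 3106.5 per cell against 2892 in WT. No share over all genes is set beside the shares above, so they do not show a rise particular to these subunits. Among cells with a collagen-binding alpha subunit, Itgb1, the partner chain, had a read in 37 of 38 WT and 65 of 66 Mkx-/- cells. Itgb1 was found in 93.8% of all WT and 96.9% of all Mkx-/- cells, so these counts do not show pairing.

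**Figure D2:**
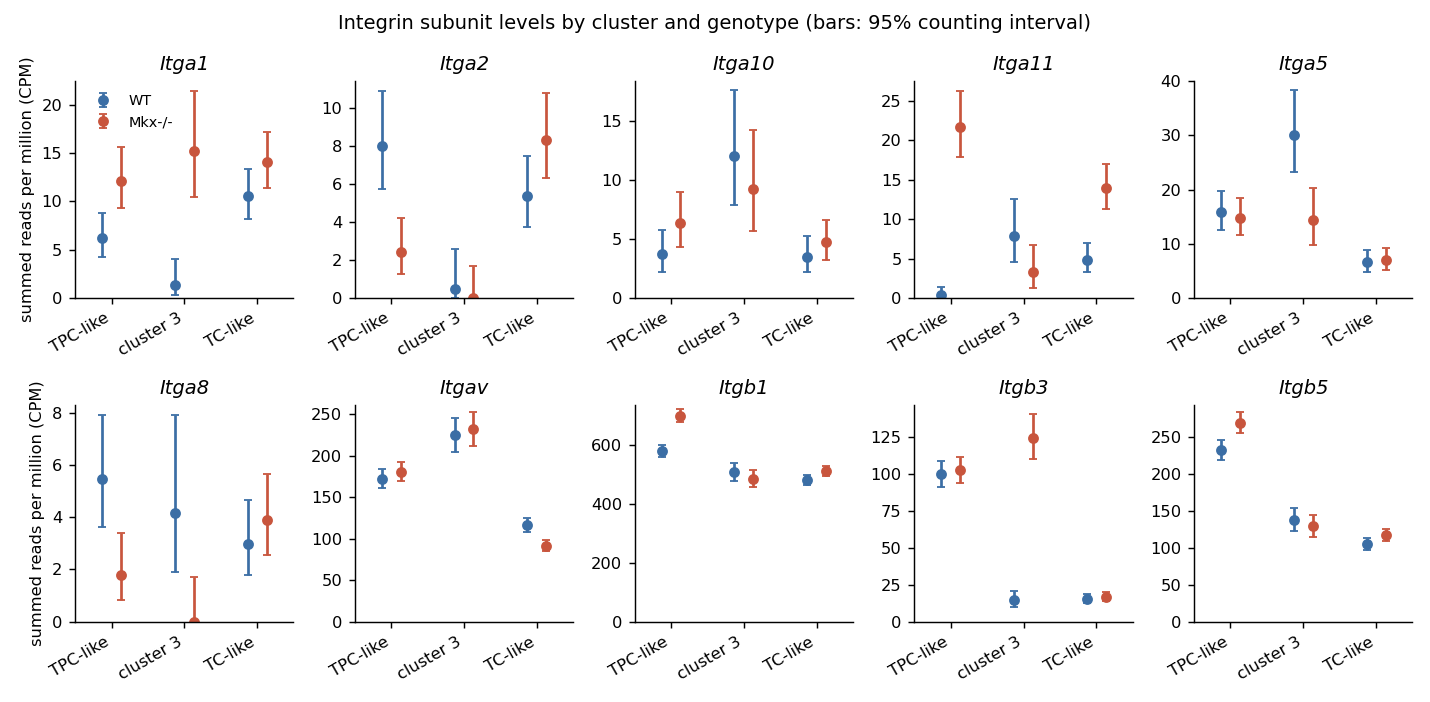
Summed reads in CPM (vertical axis) of the 10 integrin subunits in the 3 clusters of WT (blue) and Mkx-/- cells (red). Points are the level of a group and bars its 95% counting interval. Itga11 stood at 0.391 CPM in WT against 21.7 CPM in Mkx-/- TPC-like cells, and Itgb3 at 14.8 and 124.8 CPM in cluster 3.

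Among the alpha subunits that bind through an RGD motif, Itgav took 89.6% (WT) and 91.5% (Mkx-/-) of the reads. Its chain forms receptors for vitronectin, fibronectin and osteopontin and, with several beta chains, binds latent TGF-beta. Over all cells it reached 154.2 CPM (147.7 to 160.9) in WT against 144.4 CPM (138.2 to 150.8) in Mkx-/- cells, with a log2 ratio of -0.10 (-0.18 to -0.01). Its reads were present in 60.8% of WT cells and 64.7% of Mkx-/- cells. In single cells its value ran from 0 to 1628 CPM in WT (median 46.3) and from 0 to 1417 CPM in Mkx-/- cells (median 49.4), and the 2 ranges overlapped almost completely. By cluster, in plain CPM, the level was highest in cluster 3 (224.2 CPM in WT and 231.5 in Mkx-/- cells). TPC-like cells held 171.9 and 180.3 CPM, and TC-like cells 116.2 and 91.4 CPM. With totals that left out Col1a1, Col1a2 and Sparc, the WT log2 ratio of TC-like to TPC-like cells was only -0.07. The difference between the genotypes within TC-like cells was -0.35 on the log2 scale (-0.50 to -0.19), whereas in TPC-like cells (0.07) and cluster 3 (0.05) the interval held 0. Among TC-like cells, Col1a1, Col1a2 and Sparc took 30.9% of WT but 21.7% of Mkx-/- reads. This lowers the CPM of all other genes more in WT, and the median log2 ratio over all genes there was 0.21. Genotype ratios within TC-like cells were not recomputed without these genes.

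Itga5, the alpha chain of the classical fibronectin receptor, was found in 44 WT cells (13.8 CPM, 11.9 to 15.9) and 49 Mkx-/- cells (10.9 CPM, 9.24 to 12.8). The log2 ratio over all cells was -0.34 (-0.66 to -0.03). In cluster 3 it stood at 30.1 CPM in WT against 14.3 CPM in Mkx-/- cells, with 12 cells in each, and 1 WT cell held 49.2% of the reads of that group. Itga8, whose chain binds nephronectin and fibronectin, had 56 reads in 9 WT cells (4.11 CPM) and 36 reads in 8 Mkx-/- cells (2.54 CPM), and with 92 reads in all it stayed under the minimum of 100 reads used for counts of members.

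Itgb1 was the member found in most cells. It held 7114 reads in 93.8% of WT cells (521.9 CPM, 509.9 to 534.2) and 8120 reads in 96.9% of Mkx-/- cells (574.0 CPM, 561.6 to 586.7), with a log2 ratio of 0.14 (0.09 to 0.18). In single cells it ran from 0 to 1939 CPM in WT (median 446) and from 0 to 2569 CPM in Mkx-/- cells (median 483). In plain CPM the level was highest in TPC-like cells, at 579.7 CPM in WT against 699.98 CPM in Mkx-/- cells, where the ratio was 0.27 (0.20 to 0.34). It was 507.2 and 486.1 CPM in cluster 3 and 480.3 and 510.7 CPM in TC-like cells. All of these genotype differences were under 1.5-fold. With totals that left out Col1a1, Col1a2 and Sparc, the WT ratio of TC-like to TPC-like cells turned from -0.27 to 0.22. No order of these clusters is therefore given for Itgb1.

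Itgb5, whose chain pairs with that of Itgav in a vitronectin receptor, reached 157.8 CPM (151.2 to 164.6) in WT against 172.8 CPM (166.1 to 179.8) in Mkx-/- cells and was found in 66.96% and 66.1% of cells. It was highest in TPC-like cells, with 231.8 CPM in WT and 269.4 in Mkx-/- cells. Cluster 3 held 137.6 and 128.9 CPM, and TC-like cells 105.01 and 116.98 CPM. TPC-like cells thus lay highest in both genotypes, with no overlap between their counting intervals and those of the other clusters. The intervals of cluster 3 (114.2 to 144.97 CPM) and TC-like cells (109.1 to 125.3 CPM) overlapped in Mkx-/- cells. Reads of Col1a1, Col1a2 and Sparc also lower the CPM of TC-like cells, so no order of cluster 3 and TC-like cells is given.

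Itgb3, whose chain forms the osteopontin and vitronectin receptor with Itgav, differed between the genotypes in 1 of the 3 clusters. Its gene lies at 104469370 to 104531790 on the plus strand of chromosome 11 with no overlapping gene. Over all cells it held 641 reads in 58 WT cells (47.03 CPM, 43.5 to 50.8) and 901 reads in 76 Mkx-/- cells (63.7 CPM, 59.6 to 67.99), with a log2 ratio of 0.44 (0.29 to 0.59). TPC-like cells had nearly the same level in both, 100.0 CPM in WT (91.5 to 109.05) and 102.5 CPM in Mkx-/- cells (93.8 to 111.8). TC-like cells had a low level in both, 15.3 and 16.8 CPM. In cluster 3, WT cells held 32 reads in 8 of 49 cells (14.8 CPM, 10.1 to 20.9) and Mkx-/- cells 270 reads in 19 of 46 cells (124.8 CPM, 110.3 to 140.6). The log2 ratio there was 3.07 (2.54 to 3.65), and the share of cells differed by 24.98 percentage points (6.79 to 41.3). Cluster 3 of WT therefore lay beside TC-like cells in Itgb3, and cluster 3 of Mkx-/- beside TPC-like cells.

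The cluster 3 difference of Itgb3 did not rest on 1 cell or on 1 clustering. The Mkx-/- cell with most reads held 14.4% of them, and the log2 ratio was 3.93 once the leading cell of either genotype was left out. Over 3 other clusterings planned for this comparison and 1 added after the data were seen, it lay between 2.23 and 3.02. Without the wells with markers of other cell types it was 3.03. Itgb3 is also known from osteoclasts and platelets, and markers of both were examined beside it. Of 6 osteoclast markers, Mmp9 and Dcstamp were at 0 reads in all cells, and the summed level of the list in cluster 3 was 1372 CPM in WT against 2439 CPM in Mkx-/- cells. Most of this list was Ctsk, which had reads in 95.2% (WT) and 98.7% (Mkx-/-) of all cells. Over all clusters, Acp5, another gene of the list, summed to 79 reads for WT against 1767 for Mkx-/-. Calcr did not go the same way, at 8 against 0 reads, and Ocstamp was nearly level, at 26 against 29. These sums cover all cells and not cluster 3 alone. Of 5 platelet markers, Gp9 and Gp1ba were at 0 in all cells, and the list reached 10.7 CPM in WT against 6.01 CPM in Mkx-/- cells of cluster 3. The part of the osteoclast markers in the Itgb3 difference was not tested.

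**Figure D3:**
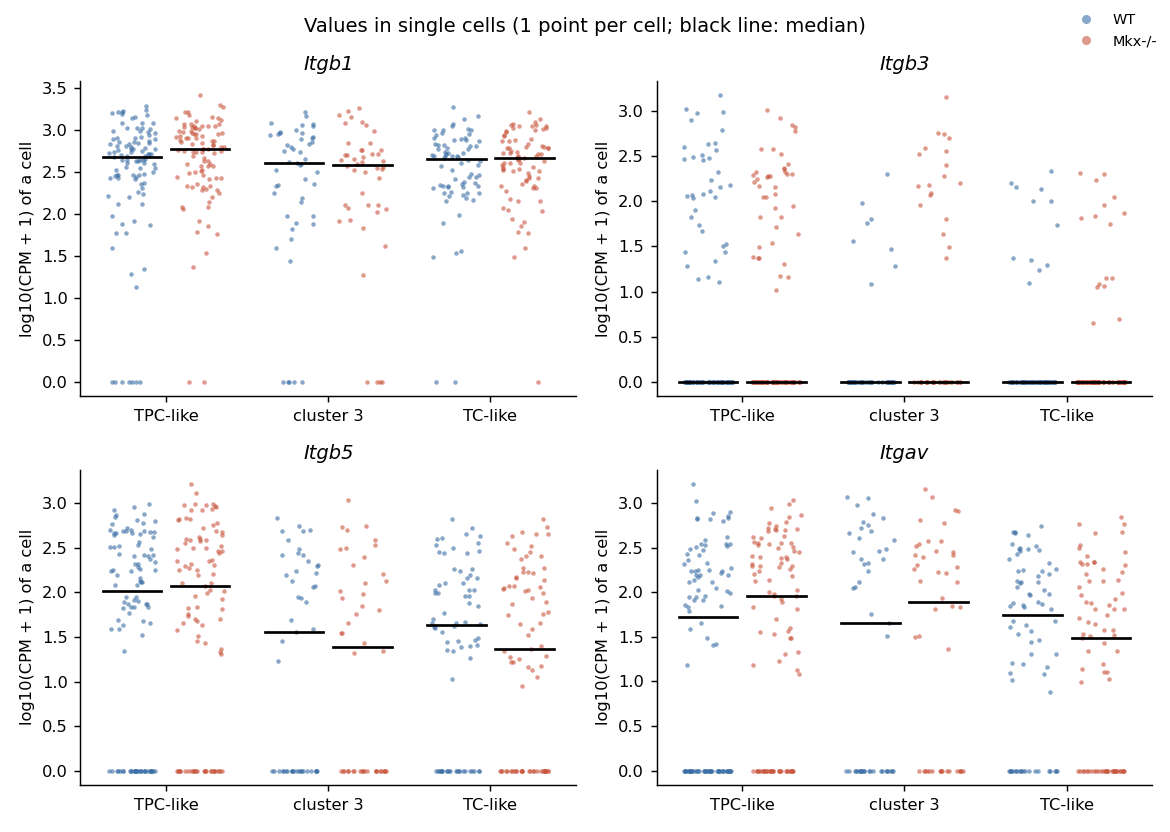
Values of Itgb1, Itgb3, Itgb5 and Itgav in single cells, as log10(CPM + 1) on the vertical axis, by cluster, for WT (blue) and Mkx-/- cells (red). Each point is 1 cell, the black line is the median, and points at 0 are cells with no read. Itgb3 had a read in 8 of 49 WT and 19 of 46 Mkx-/- cells of cluster 3, and Itgb1 values of the genotypes overlapped in every cluster.

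Set against the whole table, the share of members past 1.5-fold between genotypes was no larger than that of other genes. Over all cells 9 of the 10 members had at least 100 reads, and 2 of them, Itga1 and Itga11, passed 1.5-fold, both higher in Mkx-/- cells, beside 29.2% of the 10963 genes with 100 reads in either direction. The median log2 ratio of these 9 members was 0.14, beside 0.05 for all genes. In TPC-like cells 1 of 6 members passed 1.5-fold, Itga11, beside 33.5% of genes in either direction. In cluster 3 it was 1 of 4, Itgb3, beside 41.5%, and in TC-like cells 1 of 6, Itga11, beside 41.2%. The median log2 ratio of these members in TC-like cells was 0.15, beside 0.21 for all genes. A member could be counted only where its reads sufficed, and Itga11 reached 100 reads in TPC-like and TC-like cells mainly through its Mkx-/- reads.

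**Figure D4:**
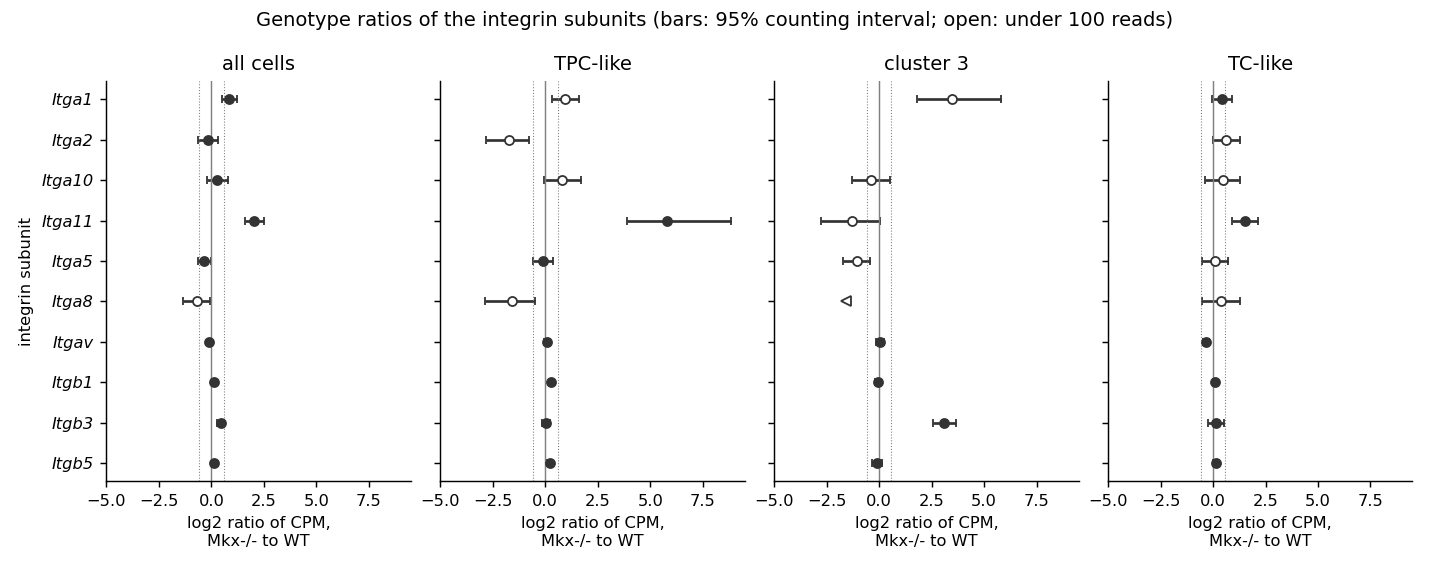
Log2 ratio of CPM of Mkx-/- to WT cells (horizontal axis) for each integrin subunit, over all cells and within each cluster. Bars are 95% counting intervals, open points have under 100 reads, the triangle is a bound against a group at 0, and dotted lines mark 1.5-fold. Itga11 lay at 2.04 over all cells and 5.80 in TPC-like cells, and Itgb3 at 3.07 in cluster 3.

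Between the cell states, Itga5, Itgb3 and Itgb5 were lower by over 1.5-fold in TC-like than in TPC-like cells of both genotypes, in a comparison where many genes were lower. In WT, 3 of 5 members with 100 reads were lower by over 1.5-fold, Itga5 (log2 ratio -1.26), Itgb3 (-2.71) and Itgb5 (-1.14), and 0 were higher, beside 53.9% of all genes lower, so the share of members was near the background. In Mkx-/- cells 5 of 7 were lower, Itga5 (-1.07), Itga11 (-0.64, but 0.20 with every gene kept in the clustering), Itgav (-0.98), Itgb3 (-2.61) and Itgb5 (-1.20), beside 42.5% of all genes. The median over these members was -1.14 in WT and -0.98 in Mkx-/- cells, while the median over all genes was -0.67 and -0.43. TC-like cells gave 30.9% of their reads in WT and 21.7% in Mkx-/- cells to Col1a1, Col1a2 and Sparc, against 2.71% to 3.72% in the other clusters, and this lowers the CPM of all their other genes. With totals that left out these 3 genes, Itgb3 had a ratio of -2.22 in WT against -2.31 in Mkx-/- cells, and Itgb5 one of -0.65 against -0.90. That of Itgav went from -0.56 to -0.07 in WT and from -0.98 to -0.68 in Mkx-/- cells. The ratio of Itgb1 turned from -0.27 to 0.22 in WT and stayed negative, at -0.15, in Mkx-/- cells, so no direction is given for Itgb1. Itgb3 was found in 36.5% of TPC-like and 16.2% of TC-like WT cells, and in 42.3% and 19.8% of Mkx-/- cells.

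Cluster 3 was set against TPC-like cells in the same way. In WT, Itga5 was higher (log2 ratio 0.93) and Itgb3 (-2.75) and Itgb5 (-0.75) were lower among 5 members, beside 45.4% of all genes past 1.5-fold in either direction. Without the leading cell of each group the Itga5 ratio was 0.23. In Mkx-/- cells Itga11 (-2.75, but 0.88 with every gene kept in the clustering) and Itgb5 (-1.06) were lower by over 1.5-fold among 6 members, beside 46.5% of genes past it in either direction. Itgav lay above TPC-like cells in both genotypes, with log2 ratios of 0.38 for WT (0.22 to 0.54) and 0.36 for Mkx-/- cells (0.20 to 0.52), both under 1.5-fold.

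Members that can pair in 1 receptor were looked up in the same cells, with each cell thinned to 28000 reads. Among Mkx-/- cells, Itgb3 had a read in 44 cells with Itgav (36.4% of these) and in 17 of 85 cells without it. Among WT cells, it was 26 cells (21.8%) with Itgav and 19 of 85 (22.4%) without it. For Itgb5 the shares were 65.3% with and 55.3% without Itgav in Mkx-/- cells, and 65.5% and 63.5% in WT cells. Cells of 1 genotype share a sample, so these shares are descriptions. Members found in at least 30% of cells were correlated with the 5125 genes found in at least 20% of cells. None reached a Pearson correlation of 0.3 over the 451 cells on the log2(CPM + 1) scale.

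Several genes of the ligands that these receptors bind had higher values in Mkx-/- cells. Of 18 ligand genes with at least 100 reads, from a list of 20, 8 were higher in Mkx-/- cells by over 1.5-fold and 0 were lower, while 1757 of all 10963 genes were higher and 1439 lower. The median log2 ratio was 0.40 for the ligands and 0.05 for all genes. The 8 were Spp1 (1.55), which encodes osteopontin, Fn1 (1.10), which encodes fibronectin, Tnc (1.10), Npnt (1.10), Thbs1 (0.88), Col5a1 (0.73), Col4a1 (0.64) and Col5a2 (0.61). Fn1, the main ligand of the Itga5 chain, stood at 440.6 CPM in WT against 944.5 CPM in Mkx-/- cells, and Spp1, a ligand of Itgav receptors, at 32.8 and 96.3 CPM. The 2 smallest increases with one sign in every cluster were those of Col6a1 (0.17) and Col6a2 (0.21), which encode chains of type VI collagen. Other fibrillar collagen genes of the list went both ways by under 1.5-fold over all cells. Col1a1 (-0.32), Col1a2 (-0.43) and Col2a1 (-0.46) were lower in Mkx-/- cells, and Col3a1 (0.21) was higher. Col1a1 and Col1a2, which encode type I collagen, were lower in TC-like cells and higher in the other clusters. Counted by the mean of per-cell CPM, 5 ligand genes passed 1.5-fold. The list includes Spp1 and Thbs1, which the study itself examined in these cells, and is no independent evidence of a direction.

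Genes of adaptor, signalling and membrane proteins that act with integrins, here called adaptors, differed in both directions, about as often as genes at large. Of 27 such genes with at least 100 reads, of 31 listed, 5 were higher and 3 lower in Mkx-/- cells by over 1.5-fold, beside 29.2% of all genes in either direction, and their median log2 ratio was 0.07. The genes named next had one sign in every cluster and by the mean of per-cell CPM, and not all of them passed 1.5-fold. The 3 highest were Vcl, which encodes vinculin, at a log2 ratio of 1.20 (0.88 to 1.53), Actn1 (alpha-actinin) at 0.57 and Bcar1 at 0.49. Actn1 and Bcar1 were under 1.5-fold. The 3 lowest were Pxn, which encodes paxillin, at -1.19 (-1.44 to -0.95), Lims2 at -0.75 and Tns2 at -0.37, which was under 1.5-fold. The other genes past 1.5-fold did not keep one sign in this way. Among 10 other matrix receptor genes with 100 reads, of 13 listed, Cd36 (-1.87) passed 1.5-fold, and Dag1 (0.58) and Sdc1 (0.53), which encode dystroglycan and syndecan-1, lay just below it.

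Of 16 other integrin subunits, 6 had at least 100 reads. Itga9, whose chain binds tenascin-C and osteopontin, stood at 23.99 CPM in WT against 47.4 CPM in Mkx-/- cells (log2 ratio 0.98, 0.79 to 1.18), and Itga7, a laminin receptor chain, at 4.84 and 7.78 CPM (0.68). Itga6, another laminin receptor chain, had a ratio of 0.34 and Itgb4 one of -0.23. Itga2b (-1.45), a platelet chain, and Itgb6 (-0.79), an epithelial chain, were lower, with reads in 21 and 11 cells over both genotypes. The 10 remaining subunits, among them the leukocyte chains, had at most 41 reads each.

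**Figure D5:**
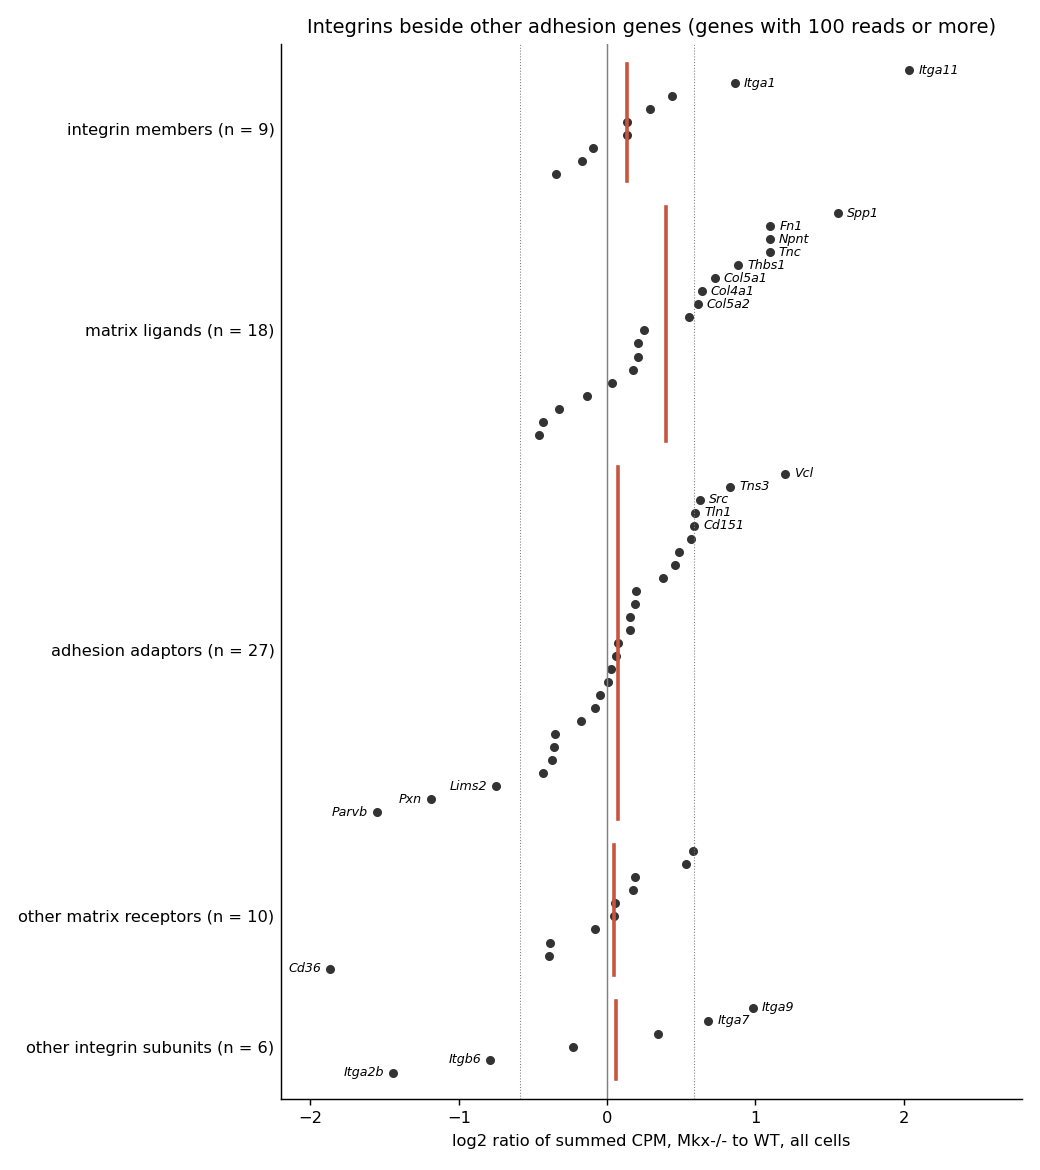
Log2 ratio of summed CPM of Mkx-/- to WT over all cells (horizontal axis) for the integrin members and 4 lists of other adhesion genes, genes with at least 100 reads. Each point is a gene, the red line is the median of its list, dotted lines mark 1.5-fold, and genes past it are named. The median was 0.14 for the members, 0.40 for the ligands, 0.07 for the adaptors, 0.05 for other matrix receptors and 0.06 for other integrin subunits.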

How the data were processed

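The deposited table holds raw counts of reads for each gene in each cell, made by the authors. Their methods state that reads were trimmed, placed with bowtie2 and counted with featureCounts. The methods name the mm9 genome and the submitters' processing notes mm10, and all 10 members were located by symbol in GENCODE M1 (NCBIM37, mm9). Neither strand nor the handling of reads with several positions is given in the sources used here. Cells had been filtered by the authors and no doublet caller was run.

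Counts were summed over the cells of a genotype, or of a genotype and cluster, and divided by the summed reads (CPM). Sums have exact Poisson, ratios exact conditional binomial, shares exact Clopper-Pearson and differences of shares Newcombe intervals, at 95%. In ratios 3 reads stood in for a sum of 0, and sums of 3 or fewer in both groups gave none. Members and list genes were counted at 100 reads over both groups and a 1.5-fold ratio. The ratio was tested on simulated data. Cells were clustered with Seurat 5.3.0 (R 4.3.3) on genes found in at least 3 cells, using canonical correlation anchors on the 1000 most variable genes of each genotype, 4 dimensions and resolution 0.4. Alternatives used edgeR 4.0.16 and DESeq2 1.42.0 scaling factors, other totals and weights, thinned cells, leading cells left out and other clusterings. Wells with other cell type markers, which held at least 3 markers and 10 reads of a list, and a clustering with every gene kept were added after the data were seen. For shares of cells, cells with fewer than 28000 reads were left out when thinned, and the thinning was a single random draw.

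The members and all lists were chosen with earlier results of these data known. All members were named. Of each list, the 3 highest and 3 lowest ratios were named among genes with 100 reads and one sign in all clusters and by the mean of per-cell CPM. Of the other integrin subunits every one with 100 reads was named. Npnt, Thbs1, Col1a1, Col1a2, Col2a1, Col3a1, Col4a1, Col5a2, Cd36, Mkx and the osteoclast and platelet genes were named after their values were seen.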

Additional observations from a re-analysis of the deposited data

Results flagged for a closer look

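In each of these results the same comparison went opposite ways in 2 groups of cells, both beyond counting error. The difference between the groups was not tested, because each genotype was 1 sample. The log2 ratio of Itga2, Mkx-/- to WT, was -1.74 among TPC-like cells but 0.64 among TC-like cells, over 53 and 92 reads, and 31 of the 41 WT reads in TPC-like cells came from 1 well with markers of another cell type. The ratio of Itga11, TC-like to TPC-like, was 3.64 in WT and -0.64 in Mkx-/- cells. Its ratio of cluster 3 to TPC-like cells was 4.33 in WT, where TPC-like cells held 2 reads, and -2.75 in Mkx-/- cells. The ratio of Itgb3, cluster 3 to TPC-like cells, was -2.75 in WT and 0.28 in Mkx-/- cells. With every gene kept in the clustering, both Itga11 ratios in Mkx-/- cells turned positive, at 0.20 and 0.88. The Itgb3 ratio in Mkx-/- cells was then -0.07, so its positive sign did not hold.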

How the results depend on the processing

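No paired analysis was possible because the labels give the cells no animal or chip, and their numbers only name cells. Of the values recomputed for single members, 332 stayed within the counting interval, 56 moved out of it and 2 that had passed 1.5-fold changed sign. With every gene kept in the clustering, which moved 25 of 451 cells, the ratio of Itga11 in Mkx-/- cells was 0.20 for TC-like and 0.88 for cluster 3 against TPC-like cells, beside -0.64 and -2.75. The number of members past 1.5-fold between genotypes in TPC-like cells was 0 at resolution 0.6 and 0 with every gene kept, beside 1, since Itga11 then had under 100 reads there. In TC-like cells it was 2 with leading cells left out, beside 1. With no minimum of reads, 12 other integrin subunits and 4 other matrix receptors passed 1.5-fold, beside 4 and 1. Without wells with other cell type markers 2 other integrin subunits passed, and by the mean of per-cell CPM 5 ligand genes did, beside 8. The other 67 recomputed counts stayed within 1.5 times the main count. Subunits found in few cells, namely Itga1, Itga2, Itga8, Itga10 and Itga11, are limited by depth and by single cells. Genotype cannot be told apart from animal, digestion or chip.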

Other observations

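Ilk, which encodes integrin-linked kinase, stood at 0 reads in all 451 cells, although genes of its complex partners had reads, such as Rsu1 with 662 reads in WT and 535 in Mkx-/- cells. Acp5 had reads in 5.73% of WT and 35.3% of Mkx-/- cells, and 1 cell held 28.2% of its reads.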
